A study of Mus musculus with 8 samples.

Results

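The enzymes that make prostaglandins, thromboxane and leukotrienes are described here through 10 genes: Pla2g4a, Ptgs1, Ptgs2, Ptges, Ptges2, Ptges3, Tbxas1, Alox5, Alox5ap and Ltc4s. They were selected by name from a list of pathway enzymes that was drawn up with expression values of these same 4 groups known, and matched to the table through the Ensembl identifiers of the mouse GENCODE annotation. They are 10 of the 55359 genes in the deposited table, and all 10 reached a mean of 10 normalized counts, the minimum for a gene to enter the tests. Since measured values took part in the choice, the levels and differences of these 10 genes are given as a description, without p-values.

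Arachidonic acid is held in membrane phospholipids and is set free by phospholipases. Cyclooxygenases turn it into prostaglandin H, from which terminal synthases make prostaglandin E, thromboxane and other prostanoids, while the lipoxygenase Alox5 starts the synthesis of leukotrienes from the same precursor. Macrophages (Mϕ) are a known source of both families of lipid mediators, and the inducible cyclooxygenase Ptgs2 is a classical target of bacterial lipopolysaccharide (LPS).

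The study asked how Mϕ that have taken up apoptotic cells (efferocytosis) respond to an inflammatory stimulus. Bone marrow cells of adult C57BL/6 wild-type mice of both sexes were differentiated to Mϕ (BMDMs) for 7 days by the sample labels, or 6 days by the published methods, with 20 ng/mL M-CSF and 20 ng/mL GM-CSF, CD45-positive cells were isolated on magnetic beads, and total RNA was sequenced after rRNA depletion. The 4 groups held 2 samples each, numbered 1 and 2. Ctrl were naive BMDMs without stimulation. LPS were naive BMDMs stimulated for 6 h with LPS at 100 ng/mL together with IFNγ at 100 U/mL. Eff were BMDMs that from day 6 were cultured for 16 h with 5 apoptotic cells per Mϕ in the presence of 10 nM dimerizer and then washed. LPSEff were treated as Eff and then stimulated for 6 h with LPS (100 ng/mL) plus IFNγ (100 U/mL). The apoptotic cells were mouse NIH-3T3 CA fibroblasts, a line in which the dimerizer activates an introduced human caspase-8 domain. Eff and Ctrl thus differ in the fibroblasts and the dimerizer together, and these cannot be told apart. Whether Ctrl cells were washed as well is not stated. Nothing in the sources says that the samples of a group came from separate mice or cultures, so the p-values below measure the spread between these samples, which may be technical.

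The values are normalized counts, that is, the reads on a gene divided by 1 size factor per sample. Reads on genes numbered 3481288 and 12020918 in Ctrl, 6548938 and 9344411 in LPS, 7517814 and 9745287 in Eff, with 11267193 and 7472370 in LPSEff. A floor of 3 reads corresponded to between 1.74 and 5.71 normalized counts, and such floors cover counting error only. Fold changes are log2 differences of (normalized count + 1) with their standard error (SE) from limma, a scale that understates the change of genes with low counts. A gene is said to be called where its Benjamini-Hochberg adjusted p in limma was under 0.05 over the 16309 genes tested.

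Genes that are known to respond to LPS/IFNγ, chosen with results of these data known, are given as a description. Nos2, the inducible nitric oxide synthase, went from 45.7 and 31.8 normalized counts in Ctrl to 37734 and 24545 in LPS, and from 23.7 and 26.8 in Eff to 50429 and 39259 in LPSEff. Both stimulated samples lay far above both unstimulated samples in each context. The cytokine genes Il6, Il1b and Tnf and the chemokine gene Cxcl10 were higher with stimulation too. The log2 fold change of Tnf was 3.82 ± 0.25 (SE) and 2.98 ± 0.25 in these comparisons, and that of Il6 was 9.33 ± 0.24 and 8.21 ± 0.24.

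The labelled cell type was checked with marker genes. All 6 Mϕ markers were measured above the minimum, their sum lay between 23672 normalized counts in Eff 1 and 46093 in LPSEff 2, and Itgam was the most abundant, with a mean of 14278. The 7 markers of T, NK and B cells summed to between 6.35 and 23.3 normalized counts, none of them had a mean of at least 10, Ms4a1 was the most abundant with a mean of 3.50, and Ncr1 and Klrb1c had at most 3 reads in every sample. The 6 neutrophil markers, 4 of them with a mean of at least 10 and S100a8 the most abundant, summed to 863 and 614 normalized counts in Ctrl, 1412 and 1603.5 in LPS, 1246 and 1025.5 in Eff, with 2028 and 1534 in LPSEff. This sum was higher in all stimulated samples than in all unstimulated ones. With apoptotic cells S100a8 was higher in either state and Ly6g in Eff vs Ctrl only, whereas S100a9, Camp and Elane overlapped and Mpo was lower in LPSEff than in LPS. Neutrophils express cyclooxygenases and leukotriene enzymes too, and their part in the values below was not tested.

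Summed markers of 2 other cell types were higher in samples with apoptotic cells. The 10 fibroblast markers, of which 8 had a mean of at least 10 and Col1a2 was the most abundant, summed to 89.5 and 144 normalized counts in Ctrl, 374 and 509 in LPS, 1656 and 3126 in Eff, with 5009 and 4201 in LPSEff. Every sample with apoptotic cells had a higher sum than every sample without, and 6 of the 10 genes (Col1a1, Col1a2, Col3a1, Col6a3, Pdgfra and Dcn) were higher in Eff than in Ctrl and in LPSEff than in LPS without overlap. Pdgfrb went the other way in stimulated samples, with 246 and 245 in LPS against 82.3 and 157 in LPSEff. The 5 platelet and megakaryocyte markers, 4 of them with a mean of at least 10 and Pf4 the most abundant, summed to 202 and 183 normalized counts in Ctrl, 286 and 275 in LPS, 1677 and 552 in Eff, with 1743 and 858 in LPSEff. This sum, too, was higher in each sample with apoptotic cells, which rests on Pf4 and Ppbp. Itga2b and Gp9 were lower in both LPSEff samples than in both LPS samples, and Gp1bb overlapped. NIH-3T3 is a mouse line, so its RNA counts on the same genes as that of the Mϕ. Washing and the isolation of CD45-positive cells came before sequencing, and whether free fibroblasts remained was not tested. The part of the fibroblast and platelet signals in the Eff vs Ctrl and LPSEff vs LPS differences given below was not tested. In each context the fibroblast sum was also higher in both stimulated samples than in both unstimulated ones. Its part in the LPS/IFNγ differences was not tested either. In bulk samples such as these, fewer cells of a type and less RNA per cell cannot be told apart.

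Calls of the 10 enzymes say where the fit over all genes places them and are no test, since values of these groups took part in their choice. Of the 10, 5 were called in LPS vs Ctrl (24.0% of all tested genes were called there), with Ptgs2 and Ptges higher and Ptgs1, Tbxas1 and Alox5ap lower. In LPSEff vs Eff, 5 were called (19.7% of all tested genes), with Ptgs2, Ptges and Pla2g4a higher and Ptgs1 and Tbxas1 lower. In Eff vs Ctrl, 1 was called (0.251% of all tested genes), which was Ptgs2, higher in Eff. In LPSEff vs LPS, 0 were called by limma (0.773% of all tested genes), 0 by edgeR and 0 by DESeq2. With the replicate number as a block, which lowers the SE, 6, 7, 1 and 2 enzymes were called in these comparisons, where 41.2%, 37.0%, 2.67% and 6.97% of all tested genes were. The 4 comparisons share samples, so that their values stand side by side without a test between them. The exception is the difference between both LPS/IFNγ effects, LPSEff vs Eff minus LPS vs Ctrl, which was fitted as an interaction. No gene was called in it (0 of 16309 by limma, with or without the block, 0 by edgeR and 0 by DESeq2), and 311 genes had an unadjusted p under 0.05 in limma, against 1052 with the block.

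The deposited scaling and scaling to equal totals differ between stimulated and unstimulated samples, as the normalized counts of a sample summed to between 6587737 and 6951788 without stimulation and to between 8470249 and 9489294 with it. Rescaling the samples to equal totals moved the median log2 fold change over all tested genes by -0.39 in LPS vs Ctrl and by -0.44 in LPSEff vs Eff, against 0.01 in Eff vs Ctrl, and -0.04 for LPSEff vs LPS. The share of called genes that were higher moved from 51.5% to 24.8% in LPS vs Ctrl and from 54.6% to 21.8% in LPSEff vs Eff. Enzymes whose sign changes with this scaling in an LPS/IFNγ comparison are named with the values.

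**Figure D1:**
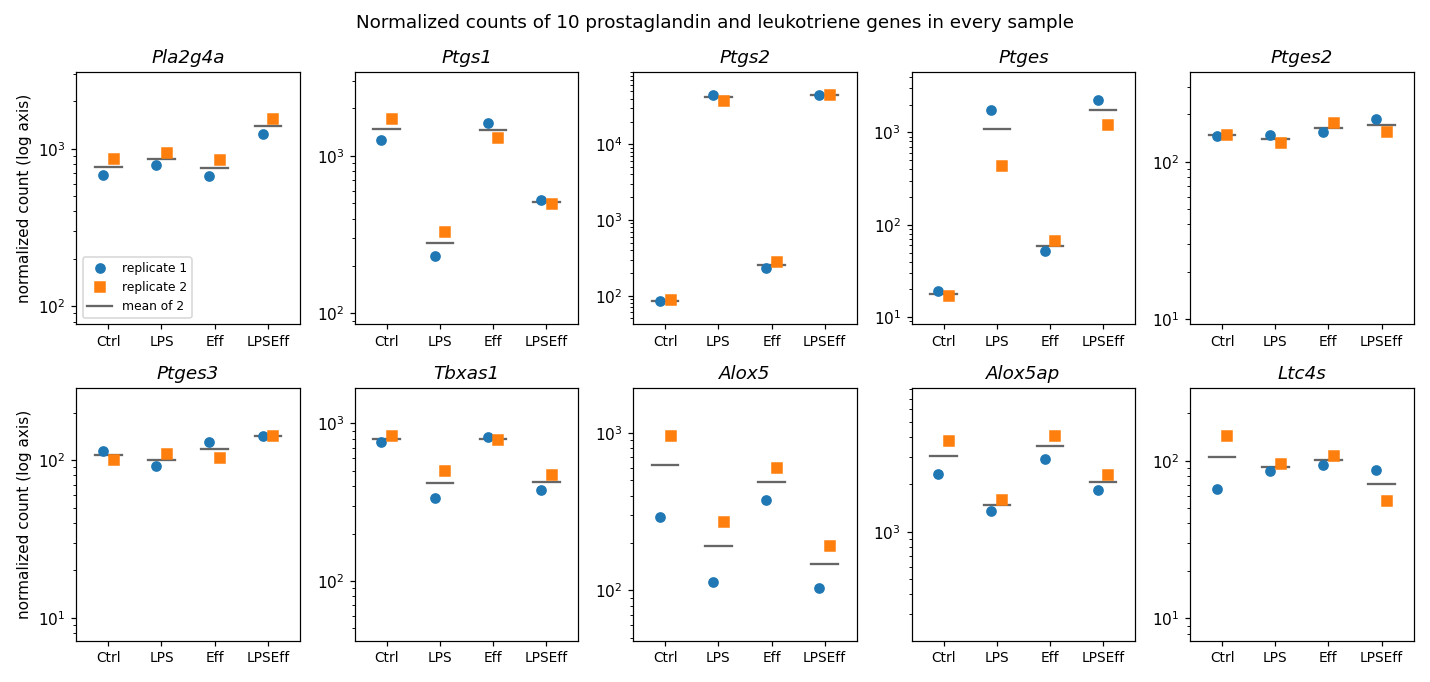
Normalized counts (log axis) of the 10 genes in each of the 8 samples, with circles for replicate 1, squares for replicate 2 and a line at the mean of 2 samples. Ptgs2 lies between 83.8 and 86.8 in Ctrl and between 37842 and 45345 in LPS, while Ptges2 stays between 131 and 186 in all 8 samples.

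Pla2g4a (ENSMUSG00000056220, chr1:149705369-149837053, minus strand, GRCm39) encodes the cytosolic phospholipase that releases arachidonic acid from phospholipids. It had 676 and 854 normalized counts in Ctrl, 786 and 945 in LPS, 675 and 843 in Eff, with 1243 and 1537 in LPSEff. The LPSEff samples were above the samples of every other group, which overlapped one another. The fibroblast marker sum was highest in LPSEff too (5009 and 4201), and its part in the Pla2g4a values was not tested. The log2 fold change was 0.87 ± 0.22 (SE) in LPSEff vs Eff, where Pla2g4a was called higher, and 0.18 ± 0.22 in LPS vs Ctrl, where it was not. With equal totals these values were 0.42, no longer called, and -0.22. The call in LPSEff vs Eff was also lost without Eff 1 (0.71), Eff 2 (1.03), LPSEff 1 (1.03) or LPSEff 2 (0.72). LPSEff was above LPS by 0.68 ± 0.22 on the log2 scale, a difference called only with the replicate block (SE 0.13), and Eff and Ctrl differed by -0.01 ± 0.22. The interaction was 0.69 ± 0.31 and was not called.

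The cyclooxygenases Ptgs1 and Ptgs2 went in opposite directions under LPS/IFNγ. Ptgs1 (ENSMUSG00000047250, chr2:36120438-36142287, plus strand) encodes the form that many cells make without a stimulus. It had 1255 and 1707 normalized counts in Ctrl, 230.2 and 329 in LPS, 1626 and 1307 in Eff, with 525 and 495 in LPSEff. Unstimulated samples were all above stimulated samples, Eff overlapped Ctrl, and both LPSEff samples were above both LPS samples. Ptgs1 fell by 2.41 ± 0.24 (SE) on the log2 scale in LPS vs Ctrl and by 1.51 ± 0.24 in LPSEff vs Eff, and by 2.81 and 1.96 with equal totals. The mean was thus 5.30-fold lower in LPS than in Ctrl and 2.88-fold lower in LPSEff than in Eff. LPSEff was above LPS by 0.89 ± 0.24, which was called only with the replicate block (SE 0.20), and Eff differed from Ctrl by -0.01 ± 0.24. The interaction of 0.89 ± 0.34 was not called.

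Ptgs2 (ENSMUSG00000032487, chr1:149975194-149983978, plus strand), the inducible cyclooxygenase, had the widest range of the 10 genes. It had 83.8 and 86.8 normalized counts in Ctrl, 45345 and 37842 in LPS, 235 and 279.5 in Eff, with 44402 and 44283 in LPSEff. Both Eff samples were above both Ctrl samples, and the LPSEff samples lay within the range of the LPS samples. The log2 fold change was 8.91 ± 0.18 (SE) in LPS vs Ctrl and 7.43 ± 0.18 in LPSEff vs Eff, and Ptgs2 was called higher in both. In means, this was 488-fold from 85.3 ± 2.10 (SD, n = 2) in Ctrl to 41593 ± 5305 in LPS, and 172-fold from 257 ± 31.6 in Eff to 44343 ± 84.1 in LPSEff.

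Without stimulation, Ptgs2 was higher in Eff than in Ctrl by 1.58 ± 0.18 (SE) on the log2 scale, or 3.02-fold in means, and was called. The call was lost with edgeR, with only both compared groups in the fit, and without Ctrl 1 (1.55), Ctrl 2 (1.60), Eff 1 (1.70), Eff 2 (1.45), LPSEff 1 (1.58) or LPSEff 2 (1.58), although the size hardly moved. After stimulation LPSEff differed from LPS by 0.10 ± 0.18. The interaction was -1.48 ± 0.26 and was not called. The fibroblast and platelet marker sums and S100a8 were also higher in both Eff samples than in both Ctrl samples. Their part in the Ptgs2 difference was not tested.

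Exonic lengths here and below are the union of annotated exons, so levels compared between genes depend on which isoforms are annotated. Per kilobase of exonic length, the Ptgs2 level in a sample was 0.0507 and 0.0386 times that of Ptgs1 in Ctrl and 0.110 and 0.162 times in Eff. In LPS it was 149 and 87.3 times that of Ptgs1, and in LPSEff 64.2 and 67.9 times. Ptgs2 made up 4.27 ± 0.785% (SD, n = 2) of both cyclooxygenases together in Ctrl, 11.9 ± 2.89% in Eff, 99.1 ± 0.332% in LPS and 98.5 ± 0.0566% in LPSEff. The share of the stimulated groups did not overlap that of the unstimulated groups, Eff was above Ctrl, and LPSEff was below LPS in all samples.

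Ptges, Ptges2 and Ptges3 stand for prostaglandin E synthesis. Ptges (ENSMUSG00000050737, chr2:30779483-30820196, minus strand) encodes the inducible microsomal prostaglandin E synthase, Ptges2 (ENSMUSG00000026820, chr2:32285659-32295786, plus strand) a second membrane-associated one, and Ptges3 (ENSMUSG00000071072, chr10:127894816-127913141, plus strand) a cytosolic protein that is also a co-chaperone of Hsp90. Ptges had 19.0 and 16.8 normalized counts in Ctrl, 1732 and 427.5 in LPS, 51.7 and 66.3 in Eff, with 2258 and 1204 in LPSEff. These rest on 10 and 29 reads in Ctrl and 59 and 94 in Eff, all above the floor of 3 reads. All stimulated samples were above all unstimulated ones and Eff was above Ctrl, whereas LPS and LPSEff overlapped, with LPS 2 below the other 3 stimulated samples.

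The log2 fold change of Ptges was 5.51 ± 0.58 (SE) in LPS vs Ctrl and 4.79 ± 0.58 in LPSEff vs Eff, and it was called higher in both. Means rose 60.3-fold and 29.3-fold. The LPS mean rests largely on LPS 1, and the log2 fold change in LPS vs Ctrl was 4.51 without LPS 1 and 6.52 without LPS 2. In Eff vs Ctrl the value was 1.66 ± 0.58 and in LPSEff vs LPS it was 0.94 ± 0.58, neither of them called. Without LPS 1, the sample with the higher of both LPS values, the difference of LPSEff from LPS was 1.95, and without LPS 2 it was -0.07. The interaction was -0.72 ± 0.82.

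Ptges2 and Ptges3 were not called in any of the 4 comparisons. Ptges2 had 147 and 148 normalized counts in Ctrl, 147 and 131 in LPS, 154 and 176 in Eff, with 186 and 155 in LPSEff. Ptges3 had 114 and 101 normalized counts in Ctrl, 91.8 and 109 in LPS, 131 and 103 in Eff, with 143 and 143 in LPSEff. LPS and Ctrl overlapped for both genes, while both LPSEff samples were above both LPS samples for each of them. Their log2 fold changes were -0.08 ± 0.21 (SE) and -0.10 ± 0.23 in LPS vs Ctrl, and 0.29 ± 0.21 and 0.52 ± 0.23 in LPSEff vs LPS. In LPSEff vs Eff they were 0.04 ± 0.21 and 0.30 ± 0.23, and both turned negative with equal totals (-0.40 and -0.15). Misses of the threshold do not show that the levels were equal.

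Per kilobase, Ptges was the least abundant of these 3 genes in Ctrl and in Eff and the most abundant in LPS and in LPSEff. Its share of their sum was 5.61% and 5.39% in Ctrl, 12.6% and 17.3% in Eff, 86.2% and 58.8% in LPS, with 84.9% and 75.9% in LPSEff. Ptges3 had the largest share in unstimulated samples, with 65.3 ± 1.85% (SD, n = 2) in Ctrl and 58.2 ± 7.13% in Eff. The unstimulated and the stimulated groups did not overlap in any of these shares, which add up to the whole within a sample and so do not move independently.

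Tbxas1 (ENSMUSG00000029925, chr6:38852203-39061523, plus strand) encodes thromboxane synthase, which competes with the prostaglandin E synthases for prostaglandin H. It had 759.8 and 838 normalized counts in Ctrl, 338 and 496 in LPS, 816 and 785.5 in Eff, with 381 and 471 in LPSEff. All unstimulated samples were above all stimulated ones, and the ranges with and without apoptotic cells overlapped in either state. Tbxas1 fell by 0.96 ± 0.23 (SE) on the log2 scale in LPS vs Ctrl and by 0.92 ± 0.23 in LPSEff vs Eff, and was called lower in both. With equal totals it fell by 1.36 and by 1.37. The first call was lost without Ctrl 1 (-1.03), Ctrl 2 (-0.89) or LPS 1 (-0.69) and the second without Eff 1 (-0.89), Eff 2 (-0.94) or LPSEff 1 (-0.76). Differences of 0.00 ± 0.23 in Eff vs Ctrl, and 0.05 ± 0.23 for LPSEff vs LPS were left. Platelets also express Tbxas1 and Ptgs1, and of the platelet markers Pf4 and Ppbp were higher in Eff and LPSEff; their part in the values was not tested. Per kilobase, the Tbxas1 level was 13.9 and 17.4 times that of Ptges in Ctrl and 5.50 and 4.13 times in Eff. The Ptges level was 14.7 and 2.47 times that of Tbxas1 in LPS and 17.0 and 7.34 times in LPSEff. These ratios use union lengths of 12631 bases for Tbxas1 and 4405 for Ptges, which can exceed the length of the transcripts present.

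On the leukotriene side, Alox5 (ENSMUSG00000025701, chr6:116387032-116438139, minus strand) encodes the lipoxygenase itself. It had 293 and 963 normalized counts in Ctrl, 114 and 271 in LPS, 374 and 598.5 in Eff, with 104 and 193 in LPSEff. Stimulated samples were all below unstimulated ones, LPS 2 and Ctrl 1 lay close together, and replicate 2 was above replicate 1 in each group. The log2 fold change was -1.59 ± 0.62 (SE) in LPS vs Ctrl and -1.73 ± 0.62 in LPSEff vs Eff, neither of them called. With the replicate block the SE was 0.22 and both were called lower, as they were with DESeq2 (-1.67 and -1.69) and with equal totals (-1.99 and -2.18), and in LPSEff vs Eff also with only both compared groups in the fit. Leaving out samples gave values between -2.45 without Ctrl 1, where Alox5 was called lower, and -0.74 without Ctrl 2 in LPS vs Ctrl. Eff differed from Ctrl by -0.17 ± 0.62 and LPSEff from LPS by -0.31 ± 0.62. Without 1 sample these values ran from -1.02 to 0.69 and from -0.93 to 0.31, so that neither has a settled direction.

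Alox5ap (ENSMUSG00000060063, chr5:149196003-149227762, plus strand) encodes a membrane protein without enzyme activity of its own that presents arachidonic acid to Alox5. It had 2315.5 and 3765 normalized counts in Ctrl, 1358 and 1594 in LPS, 2874 and 4078 in Eff, with 1849 and 2282 in LPSEff. Stimulated samples were below unstimulated samples of the same context, and both LPSEff samples were above both LPS samples. Alox5ap fell by 1.00 ± 0.28 (SE) on the log2 scale in LPS vs Ctrl, which was called, and its log2 fold change in LPSEff vs Eff was -0.74 ± 0.28, which was called only with the replicate block (SE 0.15), with DESeq2 (-0.72) and with equal totals (-1.19). The call in LPS vs Ctrl was lost without Ctrl 2 (-0.65), LPS 1 (-0.89) or LPS 2 (-1.12), and with only both compared groups in the fit. LPSEff was above LPS by 0.48 ± 0.28 and Eff above Ctrl by 0.21 ± 0.28, neither of them called. Per kilobase, Alox5ap was 8.40 and 4.16 times as abundant as Alox5 in Ctrl, 12.7 and 6.25 times in LPS, 8.17 and 7.25 times in Eff, and 19.0 and 12.6 times in LPSEff.

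Ltc4s (ENSMUSG00000020377, chr11:50127288-50129443, minus strand) encodes leukotriene C synthase, which joins glutathione to the leukotriene precursor and so opens the branch of cysteinyl leukotrienes. It had 66.7 and 145 normalized counts in Ctrl, 86.7 and 95.5 in LPS, 93.8 and 107 in Eff, with 87.1 and 55.8 in LPSEff. Both Ctrl samples together spanned the values of LPS and Eff, and the LPSEff samples were below the Eff samples. Its log2 fold changes were -0.11 ± 0.39 (SE) in LPS vs Ctrl, -0.52 ± 0.39 in LPSEff vs Eff, 0.03 ± 0.39 in Eff vs Ctrl, and -0.38 ± 0.39 for LPSEff vs LPS, and Ltc4s was not called in any of them. Of its exonic bases, 25.8% overlap the noncoding gene Gm26542 on the other strand, the largest such overlap of the 10 genes, and htseq-count in its default mode assigns reads by strand.

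Mast cells and dendritic cells express leukotriene enzymes too. The 6 mast cell markers, 3 of them with a mean of at least 10, Kit the most abundant and Mcpt4 with at most 3 reads in every sample, summed to 998 and 926 normalized counts in Ctrl, 255 and 405 in LPS, 691 and 829 in Eff, with 163 and 346.5 in LPSEff. The 5 dendritic cell markers, 4 of them with a mean of at least 10, summed to 2037.5 and 2574 in Ctrl, 8281.5 and 16012 in LPS, 1312 and 1618 in Eff, with 6685 and 6479 in LPSEff, most of it from Ccr7. Both sums rest mainly on 1 gene. Kit, lower in all stimulated samples, had 983 and 863 in Ctrl and 237 and 269 in LPS. Cma1 and Tpsb2, with at most 7 and 25 reads in any sample, went the other way in LPS vs Ctrl. There both were higher without overlap, while in LPSEff vs Eff they overlapped. Ms4a2, Mcpt4 and Cpa3 overlapped in both comparisons. Ccr7, Zbtb46 and Xcr1 were higher in both stimulated samples of either context, Flt3 in LPS vs Ctrl only, and Cd209a, with at most 14 reads, was lower. In LPSEff, Ccr7, Zbtb46 and Flt3 were below LPS without overlap. The mast cell protease gene Cpa3 had 15.2 and 55.5 normalized counts in Ctrl, 9.05 and 109.7 in LPS, 5.26 and 33.9 in Eff, with 7.92 and 59.7 in LPSEff. The part of these cells in the Alox5, Alox5ap and Ltc4s values was not tested.

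Alox5, Alox5ap and Pla2g4a were higher in replicate 2 than in replicate 1 in 4 of 4 groups, a pattern noticed after the values were seen. The ratio of replicate 2 to replicate 1 was 3.28 in Ctrl, 2.38 in LPS, 1.60 in Eff and 1.86 in LPSEff for Alox5, and between 1.20 and 1.26 for Pla2g4a. Of the 62 other pathway genes listed, 13 were higher in replicate 2 in all groups, among them Lta4h, the leukotriene A hydrolase (2.11, 1.59, 1.47 and 1.62), and 6 were higher in replicate 1 in all groups. Of the markers, 3 of 6 for Mϕ, 3 of 5 for dendritic cells, 3 of 6 for mast cells, 3 of 10 for fibroblasts and 1 of 5 for platelets were higher in replicate 2 in all groups. The reverse held for 3 of 6 neutrophil markers and 1 of 5 platelet markers. Ptgs2 and Ptgs1 were higher in replicate 2 in 2 of 4 groups, and Ptges in 1 of 4. Over all tested genes, too, the differences between replicates correlated between every pair of groups (r from 0.404 to 0.595). The share of all tested genes higher in 1 replicate in all groups was not computed. These counts therefore show no trait of the listed genes or cell types. What the replicate numbers share is not given, and its part in these differences was not tested.

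**Figure D2:**
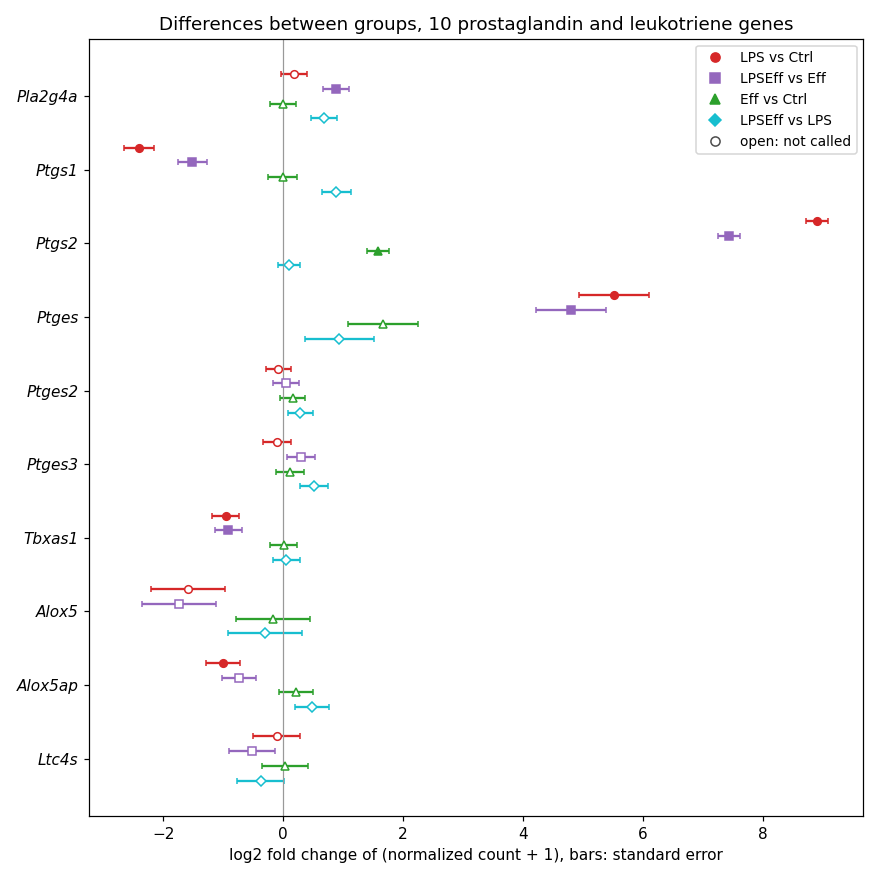
Log2 fold changes of (normalized count + 1) of the 10 genes in the 4 comparisons, with bars of 1 SE from limma and filled symbols for called differences. The filled symbols farthest from 0 are those of Ptgs2 in LPS vs Ctrl (8.91) and in LPSEff vs Eff (7.43), and Pla2g4a is called in LPSEff vs Eff only (0.87), a call lost with equal totals (0.42).

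The order of the levels per kilobase of exonic length changed with stimulation, and it depends on the annotated isoforms through the lengths. In Ctrl, Alox5ap led with 786.5 ± 265 (SD, n = 2) normalized counts per kilobase, followed by Ptgs1 with 381 ± 82.3 and Alox5 with 153 ± 115. Pla2g4a (102 ± 16.8), Ltc4s (102 ± 53.1) and Tbxas1 (63.3 ± 4.38) came next, and Alox5 and these 3 overlapped from neighbour to neighbour. Ptges3 (48.2 ± 4.33), Ptges2 (21.6 ± 0.148), Ptgs2 (16.6 ± 0.410) and Ptges (4.07 ± 0.365) formed the lower end without overlap between neighbours.

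The order in Eff was led by Alox5ap (899 ± 220.1, SD, n = 2, normalized counts per kilobase), Ptgs1 (377 ± 58.1) and Alox5 (118 ± 38.5) as well. Ptgs2, at 50.2 ± 6.16, stood above Ptges2 (24.1 ± 2.23) in Eff and overlapped Ptges3 (52.6 ± 9.02), while Ptges remained lowest with 13.4 ± 2.35. In LPS, Ptgs2 was first with 8119 ± 1036, ahead of Alox5ap (382 ± 43.2) and Ptges (245 ± 209), which overlapped. Ptges also overlapped Pla2g4a (115 ± 15.0) there, and Ptges2 was lowest with 20.4 ± 1.70. In LPSEff, Ptgs2 (8656 ± 16.4) was again followed by Alox5ap (534 ± 79.2) and Ptges (393 ± 169), which overlapped, and then by Pla2g4a (185 ± 27.7) and Ptgs1 (131 ± 5.45), which did not. Ltc4s overlapped Ptgs1 and Ptgs1 overlapped Alox5 in LPS, but in LPSEff Ptgs1 was above Ltc4s (68.9 ± 21.3) and Alox5 (36.1 ± 15.3) in all samples.

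Genes whose log2 levels over the 8 samples were most like those of 4 of the enzymes were looked up among the 8820 genes whose mean reached 100 normalized counts. For Ptgs2 these were Dync1i2, a dynein subunit (Pearson r = 0.9995), Mmp14, a membrane-type matrix metalloproteinase (r = 0.9985), and Inhba, the activin A subunit (r = 0.9981). Inhba had means of 1196 normalized counts in Ctrl, 32985 in LPS, 1847 in Eff and 40830.0 in LPSEff. It thus shared the steep difference between unstimulated and stimulated samples. Dync1i2, with means of 796 in Ctrl, 1592 in LPS, 889 in Eff and 1589 in LPSEff, did not. Pearson r does not depend on the size of a difference. For Ptges they were Armcx4 (r = 0.9953), Eva1b (r = 0.9934) and Chic2 (r = 0.9915). For Alox5 they were the phosphatase gene Ssh2 (r = 0.9948), Lta4h (r = 0.9931) and the cytoskeletal gene Epb41 (r = 0.9898). Lta4h, which acts directly after Alox5 in leukotriene B synthesis, had means of 529 in Ctrl, 279.6 in LPS, 509.5 in Eff and 236 in LPSEff. For Ltc4s the closest were Armc7 (r = 0.8859), Napa (r = 0.8774) and Kat7 (r = 0.873).

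Promoter sequences, from 250 bases before to 50 after the transcription start, were taken from RefSeq (table of build GRCm38.p6). The windows of Ptgs2, Ptges, Ptgs1 and Alox5 were each found once and unchanged in GRCm39, and positions there are given. The other windows were searched for motifs only. The table held 10 windows for 9 of the enzymes, since Pla2g4a has 2, and Alox5ap was not in it. Both strands were searched for 11 motifs, and the share of all 32851 windows in the table that hold a motif is given with it. Around the Ptgs2 start, the letters TTNNGNAA (40.7% of windows) were found 69 to 62 and 25 to 18 bases before the start, and CACGTG (7.15%) overlapped TGACG on the other strand (20.8%) just after it. GGGCGG (35.7%) and GAGGAA (28.3%) were found in the Ptgs2 window as well. The stretches of 30 bases around matches are shown because Ptgs2 is the gene with the largest difference, with the motifs in capitals; both lie in sequence that GENCODE annotates as exonic, since its Ptgs2 gene starts farther upstream.
Ptgs2, chr1:149975702-149975731, plus strand: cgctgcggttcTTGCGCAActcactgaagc
Ptgs2, chr1:149975782-149975811, plus strand: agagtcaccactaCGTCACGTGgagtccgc

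The Ptges window, shown because Ptges was the other enzyme called higher in both LPS/IFNγ comparisons, held TTNNGNAA, GAGGAA and GGGCGG within the 204 bases printed. These run from 250 to 47 bases before the start. GENCODE annotates the remaining 46 upstream bases as UTR, and another GGGCGG lies there, 42 to 37 bases before the start. The GENCODE Ptges gene starts farther upstream, so this window lies within it. Ptgs1, Tbxas1 and Alox5, whose levels were lower in all stimulated samples of both contexts, all held GAGGAA, and Alox5 also GGGCGG. Of these, the windows of Ptgs1 and Alox5 are shown and that of Tbxas1 is not. The motifs TGACGTCA (1.79% of windows) and TTCNNNGAA (8.30%) and the interferon-type repeat of GAAA (3.44%) were in none of the 10 windows. TATAAA (13.6%) was found for Pla2g4a and Tbxas1, TGANTCA (7.81%) for Tbxas1, and the NF-kB consensus (8.46%) for Ptges3. GAGGAA was in the windows of 6 genes, the last being Ltc4s. TTNNGNAA was also in the windows of Pla2g4a and Ptges2, CACGTG in that of Ptges2, and TGACG and GGGCGG in that of Ptges3. A match is a run of letters and does not show that a factor binds there.
Ptges, chr2:30793356-30793559, minus strand: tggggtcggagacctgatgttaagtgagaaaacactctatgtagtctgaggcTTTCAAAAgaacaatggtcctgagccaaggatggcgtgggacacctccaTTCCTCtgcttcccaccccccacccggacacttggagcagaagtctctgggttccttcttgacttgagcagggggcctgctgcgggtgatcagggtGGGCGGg
Ptgs1, chr2:36120188-36120437, plus strand: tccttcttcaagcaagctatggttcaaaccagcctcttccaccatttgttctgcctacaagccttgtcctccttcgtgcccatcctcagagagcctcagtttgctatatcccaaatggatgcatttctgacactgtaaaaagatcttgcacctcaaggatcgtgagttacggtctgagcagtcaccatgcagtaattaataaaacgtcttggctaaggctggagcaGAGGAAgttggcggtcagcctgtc
Alox5, chr6:116438140-116438389, minus strand: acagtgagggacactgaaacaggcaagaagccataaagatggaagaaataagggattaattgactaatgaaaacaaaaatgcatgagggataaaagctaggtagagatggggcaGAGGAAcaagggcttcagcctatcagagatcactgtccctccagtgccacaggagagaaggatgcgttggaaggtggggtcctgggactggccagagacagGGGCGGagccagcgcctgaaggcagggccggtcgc

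The rest of the pathway was read from a list of 62 other genes for lipid mediator synthesis, transport, inactivation and reception. This list, too, was drawn up with results of these data known, so the p-values of its genes, adjusted over all tested genes, carry that limit. Of the 62 genes, 46 were tested and 16 were below the minimum, the highest of the latter with a mean of 7.68 normalized counts and 6 of them with at most 3 reads in every sample, among these the prostaglandin D synthase gene Ptgds and the thromboxane receptor gene Tbxa2r. In LPS vs Ctrl, limma called 15 of the 46 (24.0% of all tested genes were called), 7 higher and 8 lower, with a median log2 fold change of -0.34 against -0.01 over all tested genes. In LPSEff vs Eff it called 17 (19.7% of all tested genes), 10 higher and 7 lower, with a median of 0.10 against 0.01. With equal totals the calls were 23 (7 higher, 16 lower) and 18 (4 higher, 14 lower), where 5735 and 5578 of the 16309 tested genes were called. With the replicate block they were 26 and 23, where 41.2% and 37.0% of all tested genes were. The block added Acsl4, Ptger2, Cmklr1 and Pla2g7 (higher) and Daglb, Lta4h, Hpgds, Cysltr1, Dpep2, Ptgir and Gpx4 (lower) in LPS vs Ctrl. In LPSEff vs Eff it added Slco2a1, Abcc4 and Cmklr1 (higher) and Daglb, Lta4h and Cysltr1 (lower). In Eff vs Ctrl, limma called 0 (0.251% of all tested genes) and edgeR 0 (14 of all 16309), DESeq2 3 (207 of all), and limma with the replicate block 4 (2.67% of all), while 6 had an unadjusted p under 0.05 in limma. In LPSEff vs LPS, limma called 1 (0.773% of all tested genes) and edgeR 1 (126 of all 16309), DESeq2 5 (368 of all), and limma with the replicate block 8 (6.97% of all). The median in these comparisons was -0.04 against -0.01 and 0.11 against 0.00. Plaat3, Lpcat2, Abcc1 and Fpr2 kept both LPS/IFNγ calls in every alternative run, and so did Ptger3 wherever its mean let it enter. Mgll, Pla2g15 and, where it entered, Gpr18 kept the call in LPS vs Ctrl. Each of the other calls of listed genes in the LPS/IFNγ comparisons was lost in at least 1 run. The shares of 24.0% and 19.7% of all tested genes also stand beside the counts of the 5 sublists that follow.

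Among 17 genes of phospholipid and arachidonate handling, 13 were tested, and 5 were called in LPS vs Ctrl (3 higher, 2 lower) and 6 in LPSEff vs Eff (4 higher, 2 lower). Plaat3, a phospholipase of adipocytes and other cells, had 57.1 and 82.1 normalized counts in Ctrl, 610.5 and 1335 in LPS, 51.7 and 51.5 in Eff, with 648 and 892 in LPSEff. It rose in both comparisons, by 3.70 ± 0.37 (SE) on the log2 scale (limma adjusted p = 0.000386) and 3.86 ± 0.37 (limma adjusted p = 0.000313), with both stimulated samples above both unstimulated ones each time. Lpcat2, which puts acyl chains back into phospholipids, rose in both as well (1.48 ± 0.26 and 1.43 ± 0.26, limma adjusted p = 0.0048 and 0.00664). The lysosomal phospholipase gene Pla2g15 and Mgll, the monoacylglycerol lipase gene, fell in both. Mgll had 679.8 and 328 normalized counts in Ctrl, 101 and 132 in LPS, 429 and 488 in Eff, with 201 and 145 in LPSEff, and its log2 fold changes were -2.02 ± 0.35 (limma adjusted p = 0.00464) and -1.42 ± 0.35 (limma adjusted p = 0.0237).

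Some genes of this group were called in 1 of both contexts, and no such difference between contexts was called by the interaction. Faah, which breaks down fatty acid amides, was called in LPS vs Ctrl (1.91 ± 0.41, limma adjusted p = 0.0118), with 9.52 and 6.94 normalized counts in Ctrl, 32.3 and 34.5 in LPS, 14.0 and 14.1 in Eff, with 26.1 and 19.0 in LPSEff. Both stimulated samples of Faah were above both unstimulated ones in each context. Acsl4, the acyl-CoA synthetase that activates arachidonic acid, was called in LPSEff vs Eff (0.92 ± 0.19, limma adjusted p = 0.0127), where all samples were higher. The same holds for Pla2g7, the secreted phospholipase that inactivates platelet-activating factor (1.86 ± 0.54, limma adjusted p = 0.0459), which had 229 and 451 normalized counts in Ctrl, 612 and 1408.5 in LPS, 361 and 619 in Eff, with 1134 and 2605.5 in LPSEff. With the replicate block Acsl4 and Pla2g7 were called in LPS vs Ctrl as well, with adjusted p-values of 0.00631 and 1.84e-05. DESeq2 called both there, edgeR and limma with a minimum mean of 50 called Acsl4, and limma without LPS 1 called Pla2g7. With equal totals neither was called in LPSEff vs Eff (limma adjusted p = 0.0723 and 0.0608).

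Among 9 genes of other prostanoid synthesis and inactivation, 7 were tested, and all calls in the LPS/IFNγ comparisons were lower: 3 in LPS vs Ctrl and 2 in LPSEff vs Eff. Cbr1, a carbonyl reductase that acts on prostaglandins, was called lower in both (-1.27 ± 0.27 and -0.97 ± 0.27, limma adjusted p = 0.0121 and 0.0404). The call of Cbr1 in LPSEff vs Eff was lost with edgeR, with DESeq2, with only both compared groups in the fit, with all genes of a mean above 0 and in 6 of 8 runs without 1 sample. The prostaglandin reductase gene Ptgr2 was called lower in both as well (-1.14 ± 0.30 and -1.05 ± 0.30, limma adjusted p = 0.0279 and 0.0431). Prxl2b, a prostaglandin F synthase gene with 28.2% of its exonic bases opposite Mmel1, was called lower in LPS vs Ctrl (-1.15 ± 0.34, limma adjusted p = 0.0399), a call lost with edgeR, with DESeq2, with only both compared groups in the fit, with all genes of a mean above 0 and without any 1 of the 8 samples. Both stimulated samples were below both unstimulated ones for each of these lower calls. Ptgis, described below, was called higher in LPSEff vs Eff with a pseudocount of 5 and with DESeq2. A fit of only both compared groups called it there too.

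Ptgr1, which acts on leukotriene B and prostaglandin metabolites, was the gene of the list called in LPSEff vs LPS. It had 465 and 541 normalized counts in Ctrl, 388 and 410.3 in LPS, 763 and 1195.5 in Eff, with 1049 and 1315 in LPSEff. Samples with apoptotic cells were all above samples without. The log2 fold change was 1.56 ± 0.24 (SE) in LPSEff vs LPS (limma adjusted p = 0.0379) and 0.93 ± 0.24 in Eff vs Ctrl, which was called with the replicate block (adjusted p = 0.0117) and with DESeq2 but not otherwise (limma adjusted p = 0.352). The call in LPSEff vs LPS was made without Eff 1 or Eff 2 and lost without any of the other 6 samples and with only both compared groups in the fit. The summed fibroblast and platelet markers were higher in the same samples, though not each marker, and their part was not tested.

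Among 11 genes of prostanoid transport and reception, 8 were tested, with 2 calls in LPS vs Ctrl (1 higher, 1 lower) and 3 in LPSEff vs Eff (2 higher, 1 lower). The prostaglandin E receptor genes Ptger3 and Ptger4 moved in opposite directions. Ptger3 had 57.1 and 87.3 normalized counts in Ctrl, 7.76 and 12.2 in LPS, 72.7 and 72.7 in Eff, with 6.33 and 11.4 in LPSEff, and fell by 2.74 ± 0.43 (SE) and by 2.95 ± 0.43 on the log2 scale (limma adjusted p = 0.003 and 0.00251). Ptger4 had 598 and 602 normalized counts in Ctrl, 993 and 1615 in LPS, 325 and 327.5 in Eff, with 599 and 547 in LPSEff. It was higher in both stimulated samples than in both unstimulated samples of each context (1.08 ± 0.24 and 0.81 ± 0.24, limma adjusted p = 0.0131 and 0.0457), and with equal totals the second of these was not called (0.36). Within each state, the Ptger4 values with apoptotic cells were below those without, by a log2 fold change of -0.88 ± 0.24 in Eff vs Ctrl, and -1.14 ± 0.24 for LPSEff vs LPS. These 2 differences were called with the replicate block (adjusted p = 0.0393 and 0.00692) but not without it (limma adjusted p = 0.37 and 0.0964), and the latter also with DESeq2, without LPS 1 and with equal totals (limma adjusted p = 0.0494). Ptger2 was called higher in LPSEff vs Eff (1.23 ± 0.37, limma adjusted p = 0.0497), with 89.4 and 102 normalized counts in Eff and 286 and 178 in LPSEff, but not with equal totals (0.79).

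Slco2a1, the prostaglandin transporter gene, had 22.9 and 15.0 normalized counts in Ctrl, 37.5 and 30.5 in LPS, 52.6 and 91.0 in Eff, with 147 and 142 in LPSEff, and Ptgis, the prostacyclin synthase gene, had 0 and 3.47, 7.76 and 1.02, 19.3 and 27.5, and 99.8 and 68.5. For both genes all samples with apoptotic cells were above all samples without. In LPSEff vs LPS, both were called with the replicate block (adjusted p = 0.00524 for Slco2a1 and 0.0129 for Ptgis) and not without it (limma adjusted p = 0.0504 and 0.0992). DESeq2 called both as well, and so did limma with a pseudocount of 5 or with all genes of a mean above 0. Ptgis had at most 6 reads in any sample without apoptotic cells, and no fold is given for it. Other genes that limma called with the replicate block and not without it were Abcc1, Ptger2, Pla2g7 and Mgst1, all higher, in LPSEff vs LPS, where DESeq2 called Abcc1 too. In Eff vs Ctrl these were Slco2a1 and Mgst2, both higher, and DESeq2 called Slco2a1 and Ptgis there.

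Among 17 genes of other leukotriene and lipoxygenase enzymes and export, 12 were tested, with 3 calls in each LPS/IFNγ comparison (1 higher, 2 lower). Abcc1, which exports leukotriene C, had 1508 and 2143 normalized counts in Ctrl, 4496 and 4238 in LPS, 2429.9 and 2761.5 in Eff, with 7268 and 7762 in LPSEff. The groups did not overlap in any of the 4 comparisons. Abcc1 rose by 1.28 ± 0.21 (SE) on the log2 scale in LPS vs Ctrl and 1.54 ± 0.21 in LPSEff vs Eff (limma adjusted p = 0.00389 and 0.00193). Mgst3, a microsomal glutathione transferase gene, fell by 0.99 ± 0.21 and by 0.83 ± 0.21 (limma adjusted p = 0.0106 and 0.0249). Cyp4f16, a member of a cytochrome gene family with close copies and therefore uncertain, fell by 1.88 ± 0.40 and by 1.61 ± 0.40 (limma adjusted p = 0.0118 and 0.0255). Both samples of each stimulated group were below both unstimulated samples for Mgst3 and Cyp4f16. Lta4h, with 341 and 718 normalized counts in Ctrl, 216 and 343 in LPS, 413 and 606 in Eff, with 180.5 and 292 in LPSEff, was not called without the block (limma adjusted p = 0.182 and 0.0995). It was called lower in both comparisons with the replicate block (adjusted p = 0.00168 and 0.000341) and with equal totals, and with DESeq2 in LPSEff vs Eff. LPS 2 lay just above Ctrl 1, while the LPSEff samples were below the Eff samples.

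Among 8 receptors for leukotrienes and related mediators, 6 were tested, and the calls were 2 in LPS vs Ctrl and 3 in LPSEff vs Eff, all higher. With the replicate block there were 4 (3 higher, 1 lower) and 5 (4 higher, 1 lower), where 41.2% and 37.0% of all tested genes were called. With equal totals Cysltr1, a receptor for cysteinyl leukotrienes, was called lower in both (limma adjusted p = 0.0245 and 0.018), and in LPSEff vs Eff only Fpr2 was called higher. Fpr2, a formyl peptide receptor that also binds lipoxin, had 40.0 and 23.1 normalized counts in Ctrl, 758 and 741 in LPS, 64.0 and 36.7 in Eff, with 705 and 745 in LPSEff. Its log2 fold changes were 4.58 ± 0.33 (SE) and 3.87 ± 0.33 (limma adjusted p = 8.46e-05 and 0.000165), and 7.0% of its exonic bases overlap Fpr3 on the same strand. Gpr18, a lipid receptor, had 3.81 and 8.10 normalized counts in Ctrl, 55.6 and 87.3 in LPS, 7.01 and 8.47 in Eff, with 23.8 and 30.5 in LPSEff. It was called in both (3.42 ± 0.48 and 1.68 ± 0.48, limma adjusted p = 0.0018 and 0.0431), the latter not with equal totals. The Ctrl values of Gpr18 rest on 2 and 14 reads, the first of them below the floor of 3 reads. Cysltr2, another receptor for cysteinyl leukotrienes, was called in LPSEff vs Eff (1.48 ± 0.39, limma adjusted p = 0.0311), with 10.5 and 12.0 normalized counts in Eff and 30.9 and 35.5 in LPSEff, but not with equal totals (1.05).

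**Figure D3:**
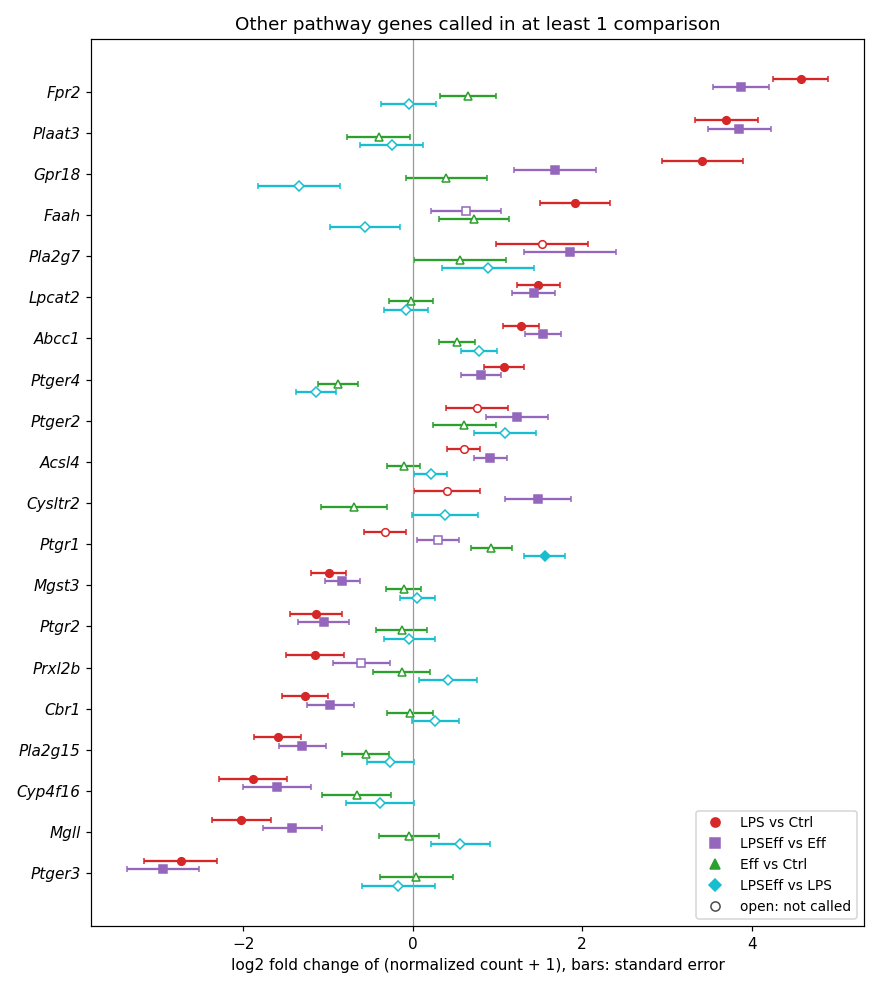
Log2 fold changes of (normalized count + 1), with bars of 1 SE from limma, of the 20 other pathway genes called in at least 1 of the 4 comparisons, filled where called. Fpr2 and Plaat3 lie at 4.58 and 3.70 in LPS vs Ctrl, Ptger3 lies at -2.74, and the only filled symbol of LPSEff vs LPS is that of Ptgr1 at 1.56.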

How the data were processed

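Total RNA of 8 BMDM samples was analysed. The authors used cutadapt for trimming, Bowtie2 against rRNA, STAR for alignment (mm39), HTSeq in default mode for counting and DESeq2 for size factors, versions not given in the sources used here. The signal deposited for a gene is its count over the size factor of the sample. In every sample 100% of values were whole multiples of the smallest nonzero value (tolerance 0.01 reads), which gave back the read counts for edgeR and DESeq2. Of 55359 identifiers, 54749 were named from GENCODE.

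Differences in log2(normalized count + 1) were tested in R 4.3.3 by limma 3.58.1 using its trend option, with the means of the 4 groups in 1 fit of all 8 samples, over 16309 genes with a mean of at least 10. Alternatives were pseudocounts of 0.5 and 5, minimum means above 0 and of 50, equal totals, only the 2 groups compared, the replicate number as a block, edgeR 4.0.16 with TMM, DESeq2 1.42.0 and leaving out each sample. The numbers 1 and 2 come from the sample labels. Differences between replicates 1 and 2 correlated across genes between every pair of groups (r from 0.404 to 0.595), so the block is given where it changes a call of an enzyme or of a listed pathway gene. Replicates of a group differed by more than sampling noise (chi-square per degree of freedom from 18.9 to 31.8).

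Lengths are the union of GENCODE exons, so ratios, shares and orders between genes depend on the isoforms annotated. The 10 enzymes, the pathway list, the marker lists and the stimulation genes were chosen with earlier results of these data known. Named are all enzymes, each pathway gene called in any comparison, the 3 genes most like each of Ptgs2, Ptges, Alox5 and Ltc4s, the stimulation genes and the most abundant marker of each list, while other names were chosen after their values were seen. Dpep2 has 2 identifiers, of which the longer was used.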

Additional observations from a re-analysis of the deposited data

How the results depend on the processing

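Of the called differences of single enzymes, none changed its sign under any alternative run. All enzyme values kept their side of the threshold with pseudocounts of 0.5 and 5 and with minimum means above 0 and of 50. With a pseudocount of 5, 3 other pathway genes were called in LPSEff vs LPS (147 of all 16309). With all 45925 genes of a mean above 0, of which 62 are other pathway genes, 10 of these were called in LPSEff vs Eff (2627 of all) and 3 in LPSEff vs LPS (162 of all), and 79 genes in Eff vs Ctrl. A separate fit with a minimum mean of 50 called 20 genes in Eff vs Ctrl. With equal totals, 5578 genes were called in LPSEff vs Eff. In LPS vs Ctrl, 23 other pathway genes were called (5735 of all 16309), and in LPSEff vs LPS 2 (137 of all). With only the 2 groups compared, Eff vs Ctrl had 9 genes and 0 enzymes called and LPSEff vs LPS had 66 genes and 0 other pathway genes; the interaction cannot be fitted that way. The replicate block gave 6717, 6033, 436 and 1137 called genes for LPS against Ctrl, LPSEff against Eff, Eff against Ctrl, LPSEff against LPS (without it 3910, 3213, 41 and 126), 26 other pathway genes in LPS vs Ctrl, 4 in Eff vs Ctrl and 8, besides 2 enzymes, in LPSEff vs LPS; besides the calls named above it changed no call of an enzyme. In Eff vs Ctrl, edgeR called 14 genes and 0 enzymes, and DESeq2 207 genes and 3 other pathway genes; in LPSEff vs LPS, DESeq2 called 368 genes and 5 other pathway genes. Shares computed without dividing by length were 5.55% (Ctrl), 15.1% (Eff) and 98.9% (LPSEff) for Ptgs2 and 6.56% (Ctrl) for Ptges. The cause of these changes was not tested, except that lengths differ between the genes of a share.

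Leaving out each of the 8 samples in turn, where the lone sample of a group is assumed to vary like the other groups, gave between 2076 and 3562 called genes, 3 and 5 enzymes and 9 and 14 other pathway genes in LPS vs Ctrl. In LPSEff vs Eff the ranges were 1567 to 3407 genes, 3 to 5 enzymes and 6 to 16 other pathway genes. In Eff vs Ctrl they were 0 to 45 genes and 0 to 1 enzymes, and in LPSEff vs LPS 0 to 84 genes and 0 to 1 other pathway genes. With 2 samples a group, the spread is known mainly through the other genes, and Ptges in Ctrl rests on 10 and 29 reads.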
